A study of Mus musculus with 3 samples.

Results

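The 5 genes of the muscarinic acetylcholine receptor family of the mouse, Chrm1, Chrm2, Chrm3, Chrm4 and Chrm5, were followed through single-cell RNA libraries of neurons sorted from the atria. They were taken by gene symbol and are 5 of the 30406 genes that all 3 libraries list. The mice carried Baf53b-cre;lox-GFP, in which a Cre driven by the promoter of the neuronal gene Baf53b (Actl6b) switches on a green fluorescent protein, so that neurons of any kind are labelled. All groups share this genotype, and no mouse was treated. The protocol names 10 mice matched for age and sex, and each library holds cells of both sexes. The anterior library came from anterior ganglia of mice aged 3 months, the posterior library from posterior ganglia of mice aged 4 months, and the third, from atria whose label names no section and called mixed here, from mice aged 2 months. With 1 library for each region, region cannot be told apart from age, from the day of preparation or from the animals. Dissociated cells were sorted by fluorescence and read as 3′ ends on the 10x Genomics platform, in which each captured transcript is counted once by its unique molecular identifier (UMI).

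Muscarinic receptors are G protein-coupled receptors for acetylcholine, the transmitter that vagal preganglionic axons release onto cardiac ganglion cells and that these in turn release onto the heart. The receptors encoded by Chrm1, Chrm3 and Chrm5 couple to Gq and phospholipase C, which in autonomic neurons closes the M-type potassium channels built from Kcnq subunits and gives a slow excitation. The receptors encoded by Chrm2 and Chrm4 couple to Gi/o, which lowers cyclic AMP, and their Gβγ subunits open the GIRK potassium channels of the Kcnj family and inhibit calcium channels. In atrial myocytes the Chrm2 receptor is the one through which the vagus slows the heart, and on cholinergic nerve endings it restrains further release.

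The members resemble each other enough that a read could in principle fall to the wrong one, so their transcripts were compared first. In the GENCODE vM21 annotation of GRCm38, Chrm1 lies at chr19:8663789-8683587 on the plus strand, Chrm2 at chr6:36388084-36528414 on the plus strand, Chrm3 at chr13:9875486-10360847 on the minus strand, Chrm4 at chr2:91927249-91928688 on the plus strand and Chrm5 at chr2:112479171-112480769 on the minus strand. A stretch of the coding exon around the Asp-Arg-Tyr motif at the inner end of the third transmembrane helix, through which receptors of this class engage their G protein, is shown for each member to make the resemblance visible. It was read from GRCm38 on the coding strand, with the 3 codons of the motif in capitals.

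Chrm1: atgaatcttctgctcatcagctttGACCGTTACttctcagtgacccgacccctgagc
Chrm2: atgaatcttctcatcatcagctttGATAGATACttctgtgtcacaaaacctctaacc
Chrm3: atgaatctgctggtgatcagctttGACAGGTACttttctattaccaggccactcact
Chrm4: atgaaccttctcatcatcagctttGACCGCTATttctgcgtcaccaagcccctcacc
Chrm5: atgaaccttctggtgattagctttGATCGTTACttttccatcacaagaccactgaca

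Of the 57 bases shown, pairs of members shared 41 to 47, and the pair that shared 47 was Chrm2 and Chrm4, the Gi/o-coupled members. Over the whole coding sequence, identity ran between 66.0% for Chrm1 and Chrm2 and 73.0% for Chrm1 and Chrm5, with 70.3% for Chrm2 and Chrm4. No run of 50 bases in any transcript of a member occurred in a transcript of another gene, the other members included. The annotated 3′ ends differ, and 3′ reads fall there. Chrm1, Chrm2 and Chrm3 have 4272, 3804 and 1743 annotated bases after the stop codon, while the models of Chrm4 and Chrm5 end at the stop codon, and RefSeq places their transcripts' ends 1147 and 438 bases further on. Reads in such an extension are not counted under models that stop short of it, so the low counts of Chrm4 and the zeros of Chrm5 are counts within models that may be too short; the annotation the authors counted with is not given in the sources used here.

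The libraries hold 2256 (anterior), 3276 (posterior) and 2829 (mixed) barcodes and 55329380, 86391988 and 119825307 UMIs. Neurons were barcodes with at least 10000 UMIs in which Snap25, Prph and Stmn2 were all detected, which gave 1315, 1447 and 1998 cells with median depths of 39854, 57151 and 57062.5 UMIs. Elavl4, a neuronal RNA-binding protein gene and not part of the gate, was detected in 98.9%, 96.6% and 99.9% of them. They were divided into Ddah1 neurons (875 cells), Nos1 neurons (200 cells) and Npy neurons (3571 cells), and 114 neurons met no gate. The gates call a neuron Nos1 at 1 or more Nos1 UMI per 10000, then Npy at 4 or more Npy UMIs per 10000, then Ddah1 at 1 or more Ddah1 UMI per 10000. Of the Nos1 neurons, 98.8%, 98.4% and 98.2% in the anterior, posterior and mixed libraries also passed the Npy limit. Levels below are UMIs per 10000 UMIs of the same cells, intervals are exact and cover counting error only, and pairs of libraries shared 3 barcodes at most.

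Chrm2 was the most abundant member in cardiac neurons of every library, followed by Chrm1, while Chrm4 was sparse, Chrm3 close to absent and Chrm5 never seen. A 3′ UMI stands for 1 captured transcript whatever its length, so levels are not divided by length. For Chrm4 and Chrm5 they count only reads within models that may stop short of the transcripts' ends, and their place in the order rests on that. Chrm2 stood at 1.21, 1.81 and 1.30 UMIs per 10000 in anterior, posterior and mixed neurons (mean 1.44 ± 0.323, SD, n = 3 libraries). Chrm1 stood at 0.458, 0.544 and 0.265 UMIs per 10000 in the same order (mean 0.422 ± 0.143). Neither gene's range over the libraries reached the other's. Chrm4, the other Gi/o-coupled member, stood at 0.0214, 0.0164 and 0.0121 UMIs per 10000 (mean 0.0166 ± 0.00465), from 111, 132 and 141 UMIs. Its range too lay wholly below that of Chrm1. Chrm3, the receptor of smooth muscle and glands, gave 11 UMIs in 8 of the 4760 neurons. Chrm5 gave no UMI in any of the 7091 barcodes kept for analysis, which in neurons allows up to 0.000578, 0.000372 and 0.000258 UMIs per 10000 in the anterior, posterior and mixed libraries (3 counts).

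Most neurons carried Chrm2, and most carried Chrm1 at full depth. Chrm2 was detected in 91.3%, 93.6% and 97.7% of anterior, posterior and mixed neurons, and Chrm1 in 76.3%, 85.5% and 73.5%. With every neuron thinned at random to 10000 UMIs, the shares were 61.4%, 73.3% and 68.9% for Chrm2 and 35.8%, 39.8% and 25.3% for Chrm1. To set a background beside them, neurons and glia-like cells were thinned to 2000 UMIs, where Chrm2 was found in 21.8%, 29.2% and 22.4% of neurons, against 2.63%, 5.45% and 0% of glia-like cells. Chrm1 was found at that depth in 9.05%, 10.9% and 5.36% of neurons, against 1.32%, 3.64% and 0% of glia-like cells. Glia-like cells with fewer than 2000 UMIs were left out, so the glial shares cover only part of that class and rest on few cells. Without thinning, Chrm2 was found in 6 of 145, 12 of 144 and 2 of 85 glia-like cells, and Chrm1 in 1, 9 and 1. For both genes the neuronal share lay above the glial one in every library.

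Within a library, Chrm2 counts varied from neuron to neuron by more than counting alone gives, and Chrm1 counts lay closer to pure counting. At 10000 UMIs per neuron the variance of Chrm2 counts over their mean, which is 1 for pure counting, was 1.97, 2.35 and 1.37 in the anterior, posterior and mixed libraries. The share of neurons without a Chrm2 UMI was 38.6%, 26.7% and 31.1%, where Poisson counts of the same mean give 26.8%, 14.2% and 26.5%. For Chrm1 the ratio of variance to mean was 1.08, 1.18 and 1.12. At a like relative spread this ratio rises with the mean. The mean counts were 0.459, 0.556 and 0.306 for Chrm1, against 1.32, 1.95 and 1.33 for Chrm2. The ratios therefore do not show that Chrm1 varied less than Chrm2. The spread of Chrm2 was also present inside the Npy neurons alone, at 1.83, 2.15 and 1.23. Finer divisions of the Npy neurons remain within these values. In Ddah1 neurons the values were 2.42, 2.42 and 1.24. In Nos1 neurons they were 1.29, 2.82 and 0.806, so the mixed Nos1 neurons showed no spread beyond counting. The mixed library had the lowest Chrm2 ratio of variance to mean in each subtype.

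**Figure D1:**
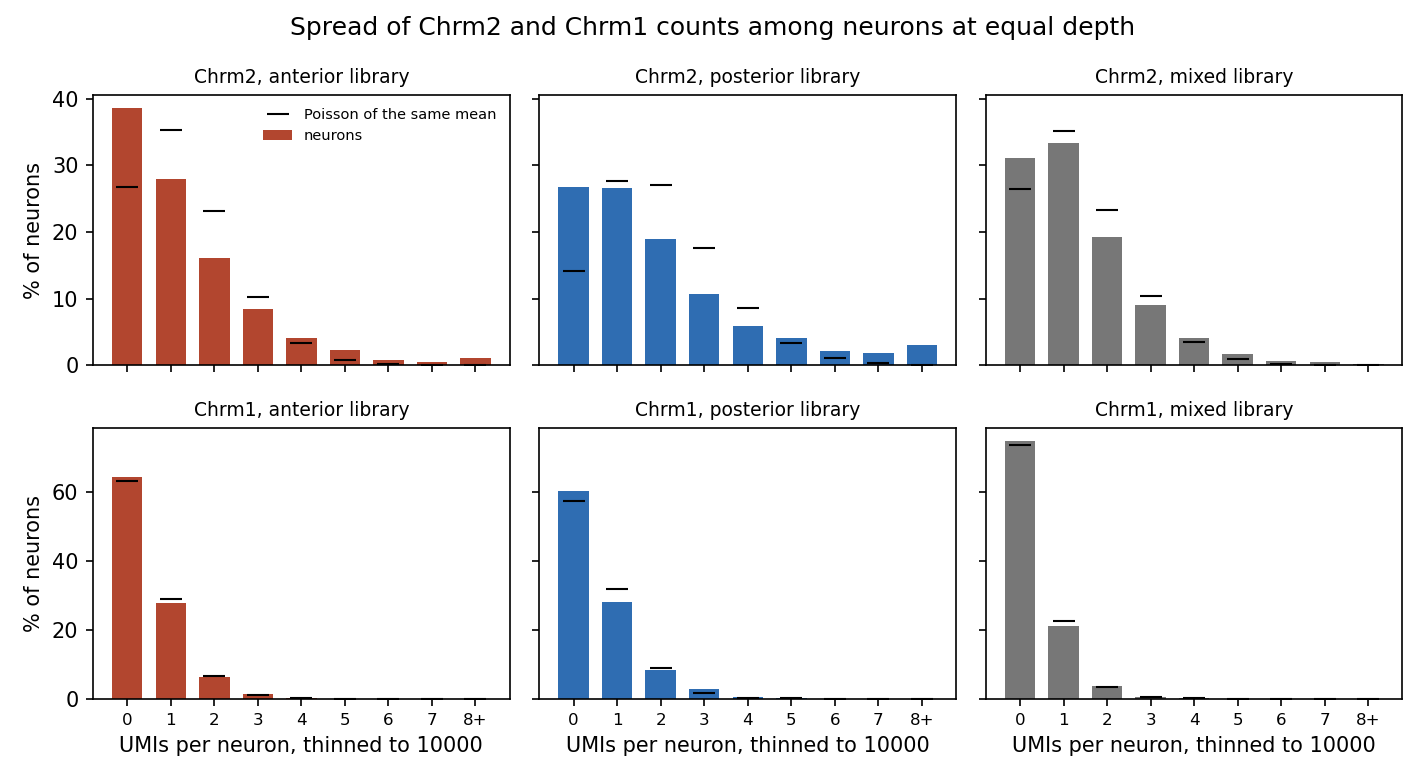
Share of neurons (%) by the number of Chrm2 (top) or Chrm1 (bottom) UMIs after each neuron was thinned to 10000 UMIs, with the libraries in columns; bars are the data and ticks the Poisson share at the same mean. Chrm2 has more neurons at 0 than the Poisson share in each library (38.6%, 26.7% and 31.1%), while the Chrm1 bars lie close to their ticks.

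The Gi/o-coupled Chrm2 and the Gq-coupled Chrm1 were often found in the same cells. At 10000 UMIs per neuron, Chrm1 was detected in 39.7%, 44.0% and 26.5% of the neurons with a Chrm2 UMI, against 29.7%, 28.4% and 22.5% of those without, in the anterior, posterior and mixed libraries. The share was higher among neurons with Chrm2 in all 3 libraries, and the difference was smallest in the mixed one. Both genes were seen in 24.3%, 32.2% and 18.3% of neurons and neither in 27.1%, 19.1% and 24.1%. No test was made, since the cells of a library are not replicates.

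Chrm2 separated the neuron subtypes, with the highest level in Ddah1 neurons, an intermediate one in Npy neurons and the lowest in Nos1 neurons. Of the 3 members with enough counts to be tested (Chrm1, Chrm2 and Chrm4), 2 were higher in Ddah1 than in Npy neurons, 1 was lower in Nos1 than in Npy neurons, and between Nos1 and Ddah1 neurons 1 was higher and 1 lower. Among all 13306 genes tested, 29.3% passed between Ddah1 and Npy neurons, 14.4% between Nos1 and Npy neurons and 29.3% between Nos1 and Ddah1 neurons, in either direction at an adjusted p under 0.05. Sums of UMIs per library and subtype were compared with edgeR's quasi-likelihood test with the library as a block, and p-values were adjusted by Benjamini-Hochberg over all genes.

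Chrm2 stood at 1.80, 2.37 and 2.15 UMIs per 10000 in Ddah1 neurons of the anterior, posterior and mixed libraries. Its level was 0.715, 1.20 and 0.811 in Nos1 neurons and 1.17, 1.59 and 1.13 in Npy neurons. The order Ddah1, Npy, Nos1 held within each library, and every Ddah1 value lay above every value of the other subtypes, while the lowest Npy values and the highest Nos1 value overlapped. Chrm2 was higher in Ddah1 than in Npy neurons by 0.69 on the log2 scale (SE 0.0689, adjusted p = 3.51e-07, higher in 3 of 3 libraries). It was lower in Nos1 than in Npy neurons, with a log2 fold change of -0.57 (SE 0.0844, adjusted p = 0.000121, lower in 3 of 3 libraries). Between Nos1 and Ddah1 neurons the log2 fold change was -1.26 (SE 0.0854, adjusted p = 2.47e-09), which is 0.398, 0.507 and 0.376 times the Ddah1 level in the anterior, posterior and mixed libraries. RNA of other cells in the neuron droplets was followed by marker sums. The summed level of 9 cardiomyocyte markers, of a class that itself carries Chrm2, was 1.04, 0.686 and 0.327 UMIs per 10000 in Ddah1 neurons, 1.46, 0.687 and 0.436 in Nos1 neurons and 1.04, 1.28 and 0.344 in Npy neurons, and in no library was it highest in Ddah1 neurons. The summed level of 10 glial markers, all detected in each subtype, was highest in Ddah1 neurons of every library, at 2.99, 3.28 and 5.18, against 2.77, 2.51 and 3.51 in Nos1 neurons and 2.67, 2.14 and 4.83 in Npy neurons. Without the neurons that carried 3 or more glial or cardiomyocyte markers, the Chrm2 log2 fold change was 0.68 for Ddah1 against Npy neurons, -0.59 for Nos1 against Npy neurons and -1.27 for Nos1 against Ddah1 neurons, each past the threshold. The summed level of 10 macrophage markers was also highest in Ddah1 neurons of every library, at 0.278, 0.527 and 0.305 UMIs per 10000, against 0.180, 0.208 and 0.115 in Nos1 neurons and 0.183, 0.208 and 0.196 in Npy neurons. Adgre1 made up 100%, 56.4% and 95.5% of that sum in Ddah1 neurons, and the other 9 markers were at 0 in the anterior ones. The part of macrophage RNA in the Chrm2 difference was not tested.

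Chrm1 differed little between the subtypes. It stood at 0.527, 0.587 and 0.305 UMIs per 10000 in Ddah1 neurons, 0.494, 0.588 and 0.348 in Nos1 neurons and 0.449, 0.530 and 0.253 in Npy neurons of the anterior, posterior and mixed libraries. The 3 subtypes overlapped over the libraries, and within each library Npy neurons were lowest. The log2 fold change was 0.19 between Ddah1 and Npy neurons (SE 0.0645, adjusted p = 0.0270), and this call was lost when any 1 of the 3 libraries was left out (adjusted p between 0.0543 and 0.103). Chrm1 did not pass between Nos1 and Npy neurons (log2 fold change 0.18, SE 0.0856, adjusted p = 0.188) or between Nos1 and Ddah1 neurons (-0.01, SE 0.0897, adjusted p = 0.970).

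Chrm4 was rare in all subtypes and most frequent in Nos1 neurons of the anterior and posterior libraries. Ddah1 neurons gave 0, 26 and 18 Chrm4 UMIs, Nos1 neurons 12, 14 and 3, and Npy neurons 99, 88 and 120, in anterior, posterior and mixed order. As levels these were 0, 0.0103 and 0.00914 UMIs per 10000 in Ddah1 neurons, 0.0449, 0.0462 and 0.0115 in Nos1 neurons and 0.0223, 0.0174 and 0.0128 in Npy neurons. The mixed library did not share the Nos1 excess over Npy neurons, and its 3 UMIs there leave the ratio between 0.182 and 2.68. Chrm4 was higher in Nos1 than in Ddah1 neurons, with a log2 fold change of 1.86 (SE 0.501, adjusted p = 0.00770), and without the posterior library this call was lost (1.68, adjusted p = 0.115). It was also lost without the neurons that carried 3 or more glial or cardiomyocyte markers (1.19, adjusted p = 0.160). The contrasts with Npy neurons did not pass, at -0.93 for Ddah1 neurons (SE 0.349, adjusted p = 0.0515) and 0.93 for Nos1 neurons (SE 0.421, adjusted p = 0.167).

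**Figure D2:**
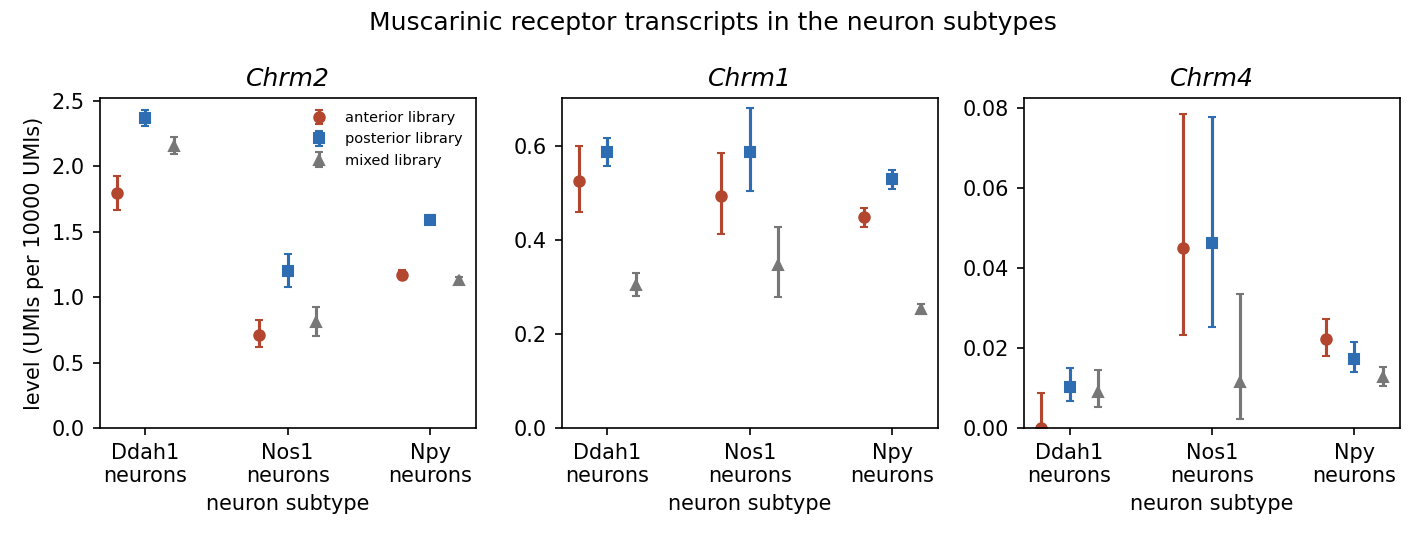
Levels of Chrm2, Chrm1 and Chrm4 (UMIs per 10000, linear axes) in Ddah1, Nos1 and Npy neurons, 1 point per library with its exact 95% Poisson interval. All 3 Chrm2 points of Ddah1 neurons (1.80 to 2.37) lie above those of Npy neurons (1.13 to 1.59), the Chrm1 points overlap, and the Chrm4 points of Nos1 neurons have wide intervals.

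Inside the Npy neurons, cells with the prostaglandin E receptor gene Ptger3 (at least 1 UMI per 10000) carried more Chrm2. The level was 1.69, 2.25 and 1.26 UMIs per 10000 in cells with Ptger3, against 0.808, 1.08 and 1.05 in cells without it, in the anterior, posterior and mixed libraries. The ratio was 2.10 (1.98 to 2.22), 2.07 (1.98 to 2.17) and 1.20 (1.15 to 1.24), so the mixed library showed the same direction at a smaller size. Median depths of the cells with and without Ptger3 were close, at 39998.5 and 40288.5 UMIs in the anterior library and 58283 and 59579 in the posterior one. Chrm1 was 1.47, 1.56 and 1.14 times as high in cells with Ptger3 and Chrm4 2.01, 1.62 and 1.29 times. Chrm1, Chrm2 and Chrm4 thus all stood higher beside Ptger3 in each library, although the interval of the mixed Chrm4 ratio, 0.883 to 1.88, includes 1.

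The receptors were also compared in other divisions of the subtypes. Npy neurons with Edn3, the endothelin 3 gene, had 1.37, 1.51 and 1.07 times the Chrm2 level of those without it, and the mixed ratio's interval (0.998 to 1.15) includes 1. Npy neurons with Tspan8, a tetraspanin gene, had 0.777, 0.900 and 0.899 times the Chrm2 level of those without. Median depths with and without Edn3 were 47509 and 39809, 66580 and 58722, and 83248 and 56504 UMIs. With and without Tspan8 they were 33230 and 40402, 53024 and 59578.5, and 52440.5 and 57594 UMIs. Within Nos1 neurons, cells with Vip, the vasoactive intestinal peptide gene, had 0.521, 0.543 and 0.912 times the Chrm2 level of cells without Vip, from 61 against 23, 23 against 38 and 23 against 32 cells. Chrm2 was thus lower beside Vip in the anterior and posterior libraries, while the mixed interval (0.678 to 1.22) includes 1. Median depths with and without Vip were 33762 and 33697, 46142 and 56043, and 41975 and 51204 UMIs. The part of depth in these ratios was not tested. Within Ddah1 neurons, the ratio of Chrm2 in cells with Mucl1, a gene for a small mucin-like protein, to cells without it was 0.992 (0.896 to 1.10) in the posterior and 1.01 (0.912 to 1.12) in the mixed library, and the anterior library held 1 cell with Mucl1. Chrm1 was 1.34, 1.38 and 0.990 times as high with Edn3, and the mixed interval (0.845 to 1.15) includes 1. With Vip it was 0.946, 1.50 and 1.11 times as high, and only the posterior interval (1.09 to 2.04) leaves out 1. With Tspan8 it was 0.838, 0.992 and 0.904 times as high, and each interval includes 1. None of these ratios has a replicate test, because each counts UMIs within 1 library.

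**Figure D3:**
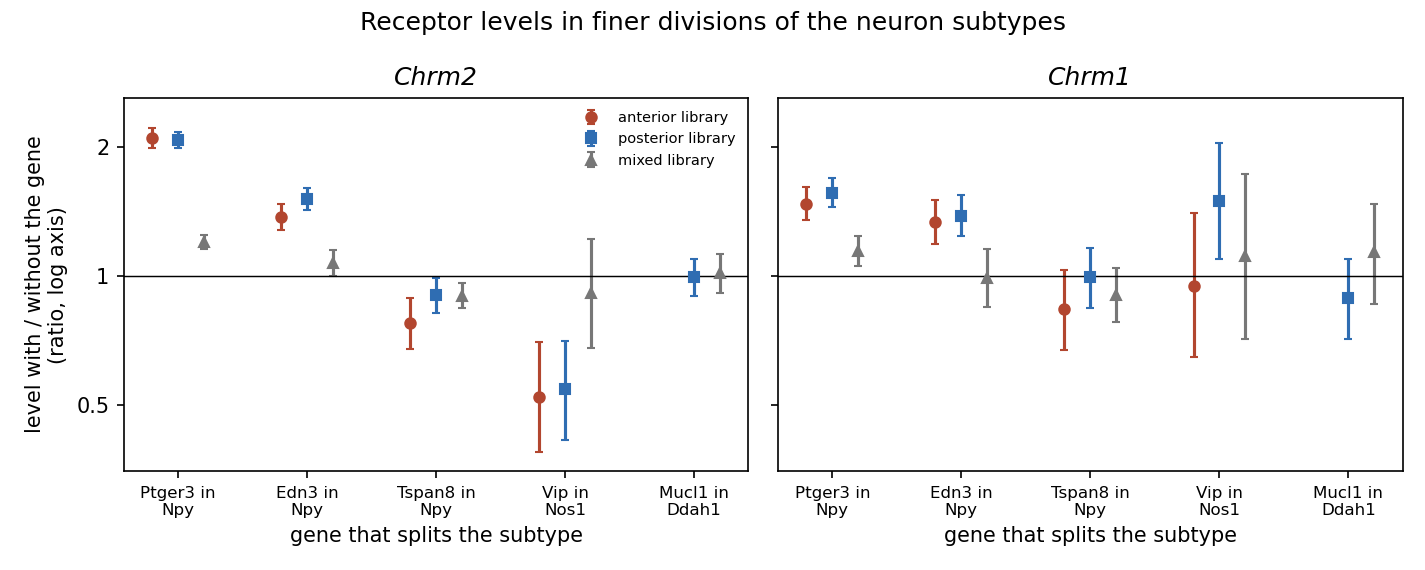
Ratio of the level in neurons with a gene to that in neurons without it (log2 axis, 1 meaning equal) for Chrm2 and Chrm1, 1 point per library with its exact 95% interval, where at least 10 cells lay on each side. The Chrm2 ratios for Ptger3 lie above 1 in all 3 libraries and those for Tspan8 below 1.

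Anterior neurons carried less Chrm2 than posterior neurons. The level was 1.21 UMIs per 10000 in anterior neurons and 1.81 in posterior neurons, a ratio of 0.669 (0.649 to 0.689) that counts reads of 2 libraries and has no replicate check. Ddah1 neurons, the subtype with the highest Chrm2 level, made up 103 of 1315 anterior and 436 of 1447 posterior neurons. Within subtypes the ratio of anterior over posterior was 0.758 in Ddah1 neurons, 0.595 in Nos1 neurons and 0.738 in Npy neurons, below 1 in all 3. Finer divisions inside a subtype still differ in share. Nos1 neurons with and without Vip numbered 61 and 23 in the anterior library, and 23 and 38 in the posterior one. The part of such shares was not tested. Chrm1 was 0.842 times as high in anterior as in posterior neurons (0.801 to 0.885), and Chrm4 1.31 times as high (1.01 to 1.69). Within subtypes the Chrm1 ratio was 0.898 (0.776 to 1.04) in Ddah1, 0.841 (0.666 to 1.06) in Nos1 and 0.847 (0.799 to 0.898) in Npy neurons. The Ddah1 and Nos1 intervals for Chrm1 include 1. For Chrm4 the subtypes did not share a direction. Ddah1 neurons of the anterior library gave 0 Chrm4 UMIs and those of the posterior 26, the ratio in Nos1 neurons was 0.972 and the interval in Npy neurons, 0.953 to 1.73, includes 1, as does that over neurons of at least 20000 UMIs (0.933 to 1.62). The mixed library, at 1.30 UMIs per 10000 for Chrm2, lay between the regions, while for Chrm1 (0.265) and Chrm4 (0.0121) it lay below both. The mixed matrix was also written by another version of Cell Ranger (3.1.0, against 6.1.2) and lists 31064 genes, against 32285 in the others. Depth, age, preparation and, for the mixed library, the counting differ together with region here, and their part was not tested.

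Outside the neurons, barcodes lacking 1 or more of the 3 neuron markers were gated by the markers of other classes. Cardiomyocyte-like barcodes, in which the Chrm2 receptor is known to act, carried Chrm2 at a higher level than the neurons, and glia-, fibroblast-, endothelial- and macrophage-like cells carried little of either receptor. The 31 anterior and 32 posterior cardiomyocyte-like barcodes held 37 and 24 Chrm2 UMIs, or 2.63 and 3.44 UMIs per 10000, and the 2 of the mixed library held 6. Chrm2 was present in 16 of the 31 and 14 of the 32, with no more than 6 UMIs in any barcode, so no lone barcode made the level. They also held Myh6, the atrial myosin heavy chain and one of the markers that chose them, at 133 and 102 UMIs per 10000. Their Snap25 UMIs, at the neurons' ratio of Chrm2 to Snap25, correspond to 0.773 and 1.70 Chrm2 UMIs in the anterior and posterior libraries, and the counts were 47.9 times (21.1 to 127) and 14.1 times (6.79 to 31.0) those. Snap25 is among the 3 markers that these barcodes could not all carry, so amounts drawn from it may be too low. By Npy, which is not part of that gate, the counts were 48.8 times (28.9 to 83.4) and 9.12 times (5.30 to 15.4) the neuronal amount. All 65 cardiomyocyte-like barcodes together held 1 Chrm1 UMI, in the anterior library.

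In the fit across classes 8449 genes were tested, and Chrm1 and Chrm2 were the only members with enough counts. The cardiomyocyte-like sums came from 2 libraries, the anterior and the posterior, since the mixed one held only 2 such barcodes. Neurons had less Chrm2 than cardiomyocyte-like cells by the test, with a log2 fold change of -0.93 (SE 0.313, adjusted p = 0.0270) beside a median of 0.53 over all genes, and 29.0% of genes passed in this comparison. The call was lost without a filter on low counts (-0.64, adjusted p = 0.217) and without neurons carrying 3 or more glial or cardiomyocyte markers (-0.83, adjusted p = 0.0639). Without the anterior library, which left 1 cardiomyocyte-like sum, the log2 fold change was -0.34. Chrm1 entered this fit through its counts in neurons alone, and against the 1 UMI of the cardiomyocyte-like cells its fitted fold change is not given as support.

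Glia-like cells, the satellite and Schwann cells that wrap the neurons, held 0.149, 0.205 and 0.0655 Chrm2 UMIs per 10000 in the anterior, posterior and mixed libraries, from 6, 13 and 2 UMIs. These counts are 1.60, 1.56 and 1.28 times what neuronal RNA at the neurons' ratio to Snap25 would give, and the intervals, such as 0.782 to 2.87 in the posterior library, include 1. Fibroblast-like cells held 0.0919, 0.115 and 0.0309 Chrm2 UMIs per 10000, or 1.36, 1.18 and 0.894 times that amount. Those intervals include 1 as well, so Chrm2 above the neuronal RNA was not detectable in these classes at this depth by that ratio; taken from Npy in place of Snap25, the posterior fibroblast-like value was 2.18 (1.00 to 4.23). For Chrm1, the posterior glia-like cells gave 9 UMIs in 9 cells, which is 3.58 times (1.56 to 7.28) the neuronal amount, while the anterior ones gave 1.

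The level of Chrm2 was higher in neurons than in glia- and fibroblast-like cells in 3 of 3 libraries each. Few UMIs of either receptor lay in the other classes of the fit. The fitted Chrm2 log2 fold change was 3.49 against the 21 UMIs of glia-like cells (SE 0.325) and 4.18 against the 14 UMIs of fibroblast-like cells (SE 0.357). Both genes passed the filter on low counts through the neurons, where they are high, so these fits compare the neurons with counts near the background. Their p-values are not given as support. Endothelial-like cells held 4 Chrm2 UMIs in all and macrophage-like cells 4. Chrm1 gave 11 UMIs in glia-like, 5 in fibroblast-like, 1 in endothelial-like and 1 in macrophage-like cells, against 9845 in neurons, and no fold change is drawn from so few. Neurons differed from these classes in many genes, with 63.2%, 63.3%, 43.0% and 51.5% of genes passing against glia-, fibroblast-, endothelial- and macrophage-like cells. Normalization by DESeq2's size factors in place of TMM moved the median of all genes by -0.25 to -0.35 in these comparisons and shifted the genes higher in neurons to 47.1% of the calls against endothelial-like cells, with 58.1% under TMM, and to 45.7% against cardiomyocyte-like cells, with 62.3% under TMM. The direction of both receptors was the same under both scalings.

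**Figure D4:**
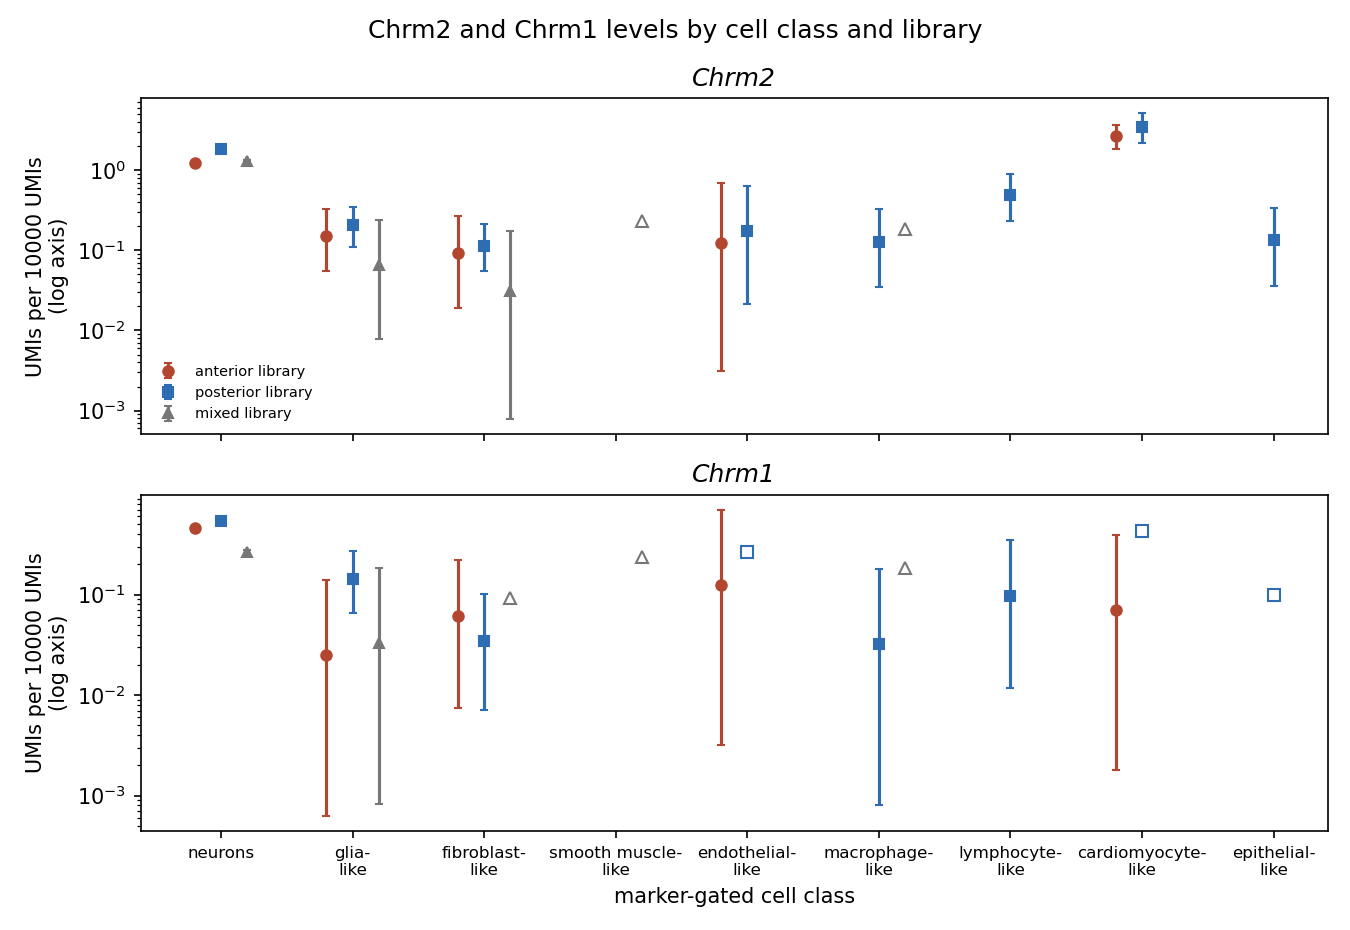
Levels of Chrm2 (top) and Chrm1 (bottom) in UMIs per 10000 on a log axis, in neurons and in each marker-gated class with at least 20 cells in a library, 1 point per library with its exact 95% interval; open symbols are counts of 0, drawn at the level of 3 counts. Chrm2 is as high in cardiomyocyte-like cells (2.63 and 3.44) as in any neuron library or higher, and Chrm1 is seen mainly in neurons.

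Chrm3 had no class in which it was common. Its 30 UMIs in all kept barcodes fell on 24 barcodes, among them 8 neurons, 4 fibroblast-like cells, 3 epithelial-like cells, 2 endothelial-like cells and 1 smooth muscle-like cell. As mean levels this was 0.000547 UMIs per 10000 in neurons and 0.0218 in fibroblast-like cells, with 0.100 in the posterior epithelial-like cells. The latter 2 values are higher than the neurons' but rest on 4 and 3 UMIs. Glia-, macrophage-, lymphocyte- and cardiomyocyte-like cells gave 0 UMIs. Chrm4 was seen in 351 neurons and in none of the barcodes gated to the other classes. Those classes hold few UMIs beside the neurons, so at this sparse level the zeros do not show that Chrm4 is confined to neurons.

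The partners of the receptors, taken from lists of genes known to act downstream of them or to set acetylcholine supply, differed between the subtypes in several places. Between Ddah1 and Npy neurons, 1 of 9 genes of the Gq branch was higher and 5 were lower, 4 of 13 genes of the Gi/o proteins and adenylyl cyclases were higher and 6 lower, and of the channels under muscarinic control 2 of 7 were higher and 1 lower. Of the RGS proteins, receptor kinases and arrestins 4 of 12 were higher and 4 lower, and of the genes of acetylcholine supply and breakdown 1 of 7 was higher and 4 lower. Over all genes 29.3% passed in this comparison. The median log2 fold change was -0.35 for the Gq branch, -0.11 for the Gi/o list, -0.02 for the channels, 0.01 for the RGS list and -0.29 for acetylcholine supply, and for all genes it lay within 0.01 of 0.

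The GIRK subunit gene Kcnj3, through which Gi/o-coupled receptors open potassium channels, stood at 0.108, 0.203 and 0.170 UMIs per 10000 in Ddah1 neurons, against 0.0259, 0.0348 and 0.0143 in Npy neurons (log2 fold change 2.84, adjusted p = 0.00158). Rgs6, whose protein shortens Gi/o signals and limits vagal slowing in the mouse heart, stood at 0.230, 0.272 and 0.161 in Ddah1 neurons, against 0.0570, 0.0691 and 0.0414 in Npy neurons (1.95, adjusted p = 3.47e-14). In both genes every Ddah1 value lay above every Npy value, as it did for Chrm2. The protein kinase C gene Prkca, on the Gq branch, went the other way, at 0.170, 0.156 and 0.135 in Ddah1 neurons, against 0.629, 0.741 and 0.558 in Npy neurons (-2.12, adjusted p = 3.04e-17). The inositol trisphosphate receptor gene Itpr1 (-1.16), the RGS gene Rgs8 (-1.79) and the butyrylcholinesterase gene Bche (-1.51) were also lower in Ddah1 neurons, and the adenylyl cyclase genes Adcy8 (1.05) and Adcy5 (0.62) were higher, all by the same test. The call of Itpr1 was lost without the posterior library (-0.78, adjusted p = 0.0991) and that of Adcy5 without the mixed one (0.37, adjusted p = 0.0625). Of the other GIRK subunit genes, Kcnj5 and Kcnj6 did not exceed 0.00330 UMIs per 10000 in any subtype and library. Kcnj9, named here after its values were seen, stood at 0.0407, 0.0377 and 0.0305 UMIs per 10000 in Ddah1 neurons, against 0.0237, 0.0261 and 0.0226 in Npy neurons (0.55, adjusted p = 0.0360), a call lost without any 1 library (adjusted p between 0.0704 and 0.169).

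Nos1 neurons shared the high Kcnj3 without the high Chrm2. Between Nos1 and Npy neurons, where 14.4% of all genes passed, 1 of 9 genes of the Gq branch was higher and 1 lower, 4 of 13 of the Gi/o list were higher and 1 lower, and 2 of 7 channels were higher and 1 lower. Of 12 RGS, receptor kinase and arrestin genes 0 were higher and 3 lower, and of 7 genes of acetylcholine supply 0 were higher and 3 lower. Kcnj3 stood at 0.187, 0.162 and 0.0803 UMIs per 10000 in Nos1 neurons, against 0.0259, 0.0348 and 0.0143 in Npy neurons (2.52, adjusted p = 0.0263), a call lost without the posterior library (2.75, adjusted p = 0.134). The phospholipase C gene Plcb1, the effector enzyme of Gq, stood at 0.146, 0.142 and 0.111 in Nos1 neurons, against 0.0313, 0.0344 and 0.0341 in Npy neurons (1.93, adjusted p = 6.04e-08). Nos1 neurons lay above Npy neurons in every library for both genes. The M-type channel gene Kcnq5 (1.00) and Adcy5 (0.80) were also higher in Nos1 neurons, and Adcy8 (-1.89), the cholinesterase anchor gene Colq (-1.04), the kinase gene Prkcb (-0.90) and the RGS gene Rgs4 (-0.68) were lower. The call of Adcy5 was lost without the posterior library (0.78, adjusted p = 0.0834) and without neurons carrying 3 or more glial or cardiomyocyte markers (0.69, adjusted p = 0.0761).

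Between Nos1 and Ddah1 neurons, where 29.3% of all genes passed, 3 of 9 genes of the Gq branch were higher and 2 lower, 6 of 13 of the Gi/o list were higher and 3 lower, and 2 of 7 channels were higher and 0 lower. Of 12 RGS, receptor kinase and arrestin genes 2 were higher and 4 lower, and of 7 genes of acetylcholine supply 1 was higher and 3 lower. The channels thus lay near the share of all genes and the other lists above it, which was not tested. Prkca (2.16), Plcb1 (2.00), Bche (1.59), Itpr1 (1.50) and Kcnq5 (0.99) were higher in Nos1 neurons. Adcy8 (-2.93), Rgs6 (-2.56) and Rgs4 (-1.21), which encodes another RGS protein of Gi/o and Gq signals, were lower. Rgs4 stood at 0.670, 1.05 and 0.654 UMIs per 10000 in Nos1 neurons, against 1.76, 1.99 and 1.58 in Ddah1 neurons, so that its order over the subtypes, Ddah1 then Npy then Nos1, was that of Chrm2.

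The genes whose levels most resembled a member over the 24 sums of subtype or class and library were found by Pearson's correlation of log2(CPM + 1) among 11770 genes. For Chrm2 they were Eef1a2 (0.926), Kif5a, Mapk10, Myl1 and Fgf12 (0.909). For Chrm1 they were Dock3 (0.944), Jph3, Adgra1, Celf5 and Smim10l2a (0.899), and for Chrm4 Shisal2a (0.918), Gpr149, Tac2, Rspo2 and B230209E15Rik (0.864). The sums share libraries and fall into neurons and other cells, so the correlations describe that division as well as any finer likeness.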

How the data were processed

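Raw UMI counts per gene and barcode were deposited by the authors as filtered 10x matrices; the submitters' processing notes name Cell Ranger 7.1.0, Seurat 4.4.2 and mm10, while per the file headers the matrices were written by Cell Ranger 6.1.2 (anterior, posterior) and 3.1.0 (mixed). No cell annotation was used, so types were rebuilt from markers. Barcodes other than neurons were kept at 1000 or more UMIs, 500 or more genes and at most 20% mitochondrial UMIs, and went to the class with the highest share of fixed markers, at least 3 detected and the next class at 0.5 of it or less. No doublet caller was run; an alternative left out the deepest 3% of barcodes. UMIs were summed per library and subtype or class and tested with edgeR 4.0.16 (TMM, filterByExpr, robust quasi-likelihood test, library as a block, Benjamini-Hochberg over all genes, adjusted p under 0.05) in R 4.3.3. Subtypes of a library come from the same sorted cells, which makes the block, and their deviations from the subtype means correlated at 0.66 to 0.96 over 6452 genes. The libraries are the replicates (n = 3), but cardiomyocyte-, endothelial- and macrophage-like sums came from 2 libraries each. With the library as a block, p-values measure how the differences between subtypes or classes vary over the libraries, not the spread of the libraries' levels. Tested on simulated counts of the Ddah1 against Npy comparison (13180 genes), the fit recovered 57% of genes changed 2-fold and 100% changed 4-fold. The simulated counts had a fixed dispersion and no library effect, and the changed genes all lay well above the level of Chrm4. These shares therefore check the code and do not give the power for these data. Levels have exact Poisson intervals, ratios exact conditional ones and shares Clopper-Pearson ones, at 95%. All 5 members were named in every comparison, with up to 8 list genes of largest change past the threshold in each subtype contrast, and the 5 genes most like each member. The members and lists were chosen with earlier results of these data known. Coordinates and sequences are from GRCm38 with GENCODE vM21. Values were computed with Python 3.11.15, numpy 2.4.6, scipy 1.17.1, pandas 2.3.3, Biopython 1.88 and matplotlib 3.10.9, and DESeq2 1.42.0 served as an alternative.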

Additional observations from a re-analysis of the deposited data

How the results depend on the processing

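Of 747 values recomputed under another setting, 681 kept their direction and their side of the threshold or their size. For Chrm2, the calls between Ddah1 and Npy neurons and between Nos1 and Npy neurons were lost with no library block (0.69, adjusted p = 0.0770, and -0.57, adjusted p = 0.296). The call against cardiomyocyte-like cells was lost with no filter on low counts (-0.64) and without neurons carrying glial or cardiomyocyte markers (-0.83), and it held without the mixed library. Leaving out the anterior or the posterior library left 1 cardiomyocyte-like sum, and the values with 1 library left out ran between -1.30 and -0.34. With 1 library left out the log2 fold change ran between 0.57 and 0.77 for Ddah1 against Npy neurons, which kept its call. For Chrm1 in Ddah1 against Npy neurons, the call was lost with DESeq2's Wald test (0.20), no filter (0.17), no library block (0.19), without marker-carrying neurons (0.16), at limits of 2 for Ddah1 and Nos1 (0.16) and with any library left out (0.16 to 0.23). The near-zero difference of Chrm1 between Nos1 and Ddah1 neurons changed sign at 20000 UMIs (0.015), without the deepest 3% (0.0011), at limits of 2 (0.031) and without the anterior (0.031) or the posterior library (0.0093), but not without the mixed one (-0.058). Chrm1 lost its calls with DESeq2's Wald test against cardiomyocyte-like (3.09) and endothelial-like cells (3.31); with 1 library left out these ran between 2.43 and 13.05 and between 2.25 and 13.05, the upper end being a fit to counts of 0 and no bound, and no fold change of Chrm1 against these classes is used. For Chrm4, Ddah1 against Npy neurons passed with DESeq2's size factors (-0.92), no filter (-0.95), 20000 UMIs (-0.90), an Npy limit of 8 (-0.94) and limits of 2 (-1.01), while Nos1 against Ddah1 neurons was lost with no library block (2.02), without marker-carrying neurons (1.19) and without the posterior library (1.68); it held without either other library, and the values with 1 left out ran between 1.56 and 2.38. Of the partner genes named, 12 values lost their call and none changed sign. Genes called fell to 800, 309 and 1151 with no library block (Ddah1 against Npy, Nos1 against Npy, Nos1 against Ddah1), and to 1239 for Nos1 against Npy without marker-carrying neurons; with 1 library left out they ran between 2272 and 3565, 1103 and 1564, 555 and 2495 (cardiomyocyte-like) and 2236 and 3889 (endothelial-like). The log2 ratio of Chrm2 in anterior over posterior neurons, -0.58, was -0.44 within Npy neurons, -0.47 without marker-carrying neurons and -0.51 with TMM. The cause of these changes was not tested. Shares of neurons with a UMI follow depth, as the unthinned values (Chrm2 91.3%, 93.6% and 97.7%, Chrm1 76.3%, 85.5% and 73.5%) and those at 10000 UMIs (61.4%, 73.3% and 68.9%, and 35.8%, 39.8% and 25.3%) show beside those at 2000. A filter at 20% mitochondrial UMIs on neurons was added after seeing the data. Counts of Chrm4 and small classes limit every value resting on under 20 UMIs.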

Other observations

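Some marker-gated barcodes outside the comparisons carried Chrm2. Of the smooth muscle-like cells, 0 of 11 in the anterior, 3 of 8 in the posterior and 0 of 31 in the mixed library held a Chrm2 UMI, and the posterior ones held 15, with 10 of them in 1 cell. Set against the neurons' ratio of Chrm2 to Snap25, the posterior count was 26.5 times (8.43 to 110) the amount that neuronal RNA would give, and the level was 3.42 UMIs per 10000. By Npy the count was 61.3 times (19.5 to 254) that amount. Lymphocyte-like cells of the posterior library held 10 Chrm2 UMIs in 8 of 50 cells, or 2.14 times that amount (0.940 to 4.44) by Snap25 and 5.64 times (2.45 to 11.9) by Npy. Neurons held Chrm2 at 1.21, 1.81 and 1.30 UMIs per 10000 in the anterior, posterior and mixed libraries, beside 1.84, 1.73 and 1.54 in barcodes with all 3 neuron markers but fewer than 10000 UMIs. The median depths of the shallow barcodes were 5571, 2467 and 6161 UMIs. Chrm3, at 30 UMIs in all kept barcodes, gave 3 of them in the posterior epithelial-like cells.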
